A study of Mus musculus with 6 samples.

Results

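Complex I (NADH:ubiquinone oxidoreductase) genes were examined in inguinal white adipose tissue (IWAT) of mice with a heterozygous nonsense variant of Ebf2, a transcription factor of adipocyte precursors and of brown and beige adipocytes. Members were the genes whose symbol begins with Nduf or mt-Nd and does not contain -ps, with 10 or more counts summed over all libraries. These were 55 of the 55491 genes in the deposited table. They comprised 7 mitochondrially encoded subunits (mt-Nd genes), 36 nuclear subunits, 8 Ndufaf assembly factors, Ndufa4 and Ndufa4l2, which bear the name but are not complex I subunits, and 2 copies of subunit genes (Ndufb4c and Ndufs6b). Of the 55, 54 had at least 10 counts in every library. Ndufb1-ps, which the table describes as subunit B1, was left out by its symbol and is given apart, and Ndufa11b was left out with 2 counts in all.

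RNA was from IWAT of 4-week-old male C57BL/6J mice, 3 Ebf2+/+ (wild-type) and 3 with the genotype Ebf2 p.E165X/+, with 1 bulk library per mouse. The variant was knocked in by genome editing at the locus itself, so that every cell carries the allele and no promoter or Cre line restricts it. Replicate numbers name mice, the sample titles give no litters, and the P values rest on the spread between 3 mice per genotype. Totals were 106820505 to 135039488 counts per library. Levels are given as CPM, in which counts are scaled by library size and TMM factors, and differences as log2 fold changes of Ebf2 E165X/+ over wild-type with their SE.

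Complex I is the entry point of electrons from NADH into the respiratory chain, and it pumps protons across the inner mitochondrial membrane. Its matrix arm holds the NADH module, with the flavin and the first iron-sulfur clusters, and the ubiquinone module, and its membrane arm holds the proton pumps. The mitochondrial genome encodes the hydrophobic core of the membrane arm, while the nuclear genome encodes the core of the matrix arm, all accessory subunits, and the assembly factors. In fat, mitochondria are most abundant in brown and beige adipocytes, in which Ebf2 is known to favor the thermogenic program.

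Ebf2 itself had 38.3, 41.3, and 37.2 CPM in the wild-type mice and 22.8, 22.9, and 21.1 CPM in the Ebf2 E165X/+ mice. The genotypes did not overlap, and the level in Ebf2 E165X/+ IWAT was 57.1% of the wild-type mean (log2 fold change −0.81, SE 0.076, edgeR adjusted P = 0.0596). Omitting single mice gave an edgeR adjusted P of 0.0423 without the third Ebf2 E165X/+ mouse and of 0.218 to 0.369 without each of the others, while DESeq2 with all 6 mice gave Ebf2 1.23e-13 after adjustment. Ebf2 lies on chromosome 14 (chr14:67233292-67430918, GRCm38), and none of the 55 complex I genes lies on that chromosome. The labelled tissue was checked by 6 adipocyte markers (Adipoq, Plin1, Lep, Fabp4, Cidec, and Lipe), all of which were detected in every library. Fabp4 was the most abundant of them.

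The third Ebf2 E165X/+ library stood apart in genes outside complex I. Its 8 skeletal muscle markers (Acta1, Ckm, Myh1, Myh4, Myh7, Tnnt3, Tnni2, and Mylpf) summed to 37371 CPM, against 2707 and 638 CPM in the other Ebf2 E165X/+ mice. In wild-type IWAT the sum was 1597, 6558, and 2470 CPM. Each of the 8 markers was highest in the third Ebf2 E165X/+ mouse, none was at 0 in any library, and Myh4 was the most abundant. Counts of genes lower at an unadjusted P under 0.05, and the medians of gene groups, are therefore given with and without this mouse. So are the log2 fold changes of those genes described singly that moved by over 1.5 times without it.

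The 55 genes were mostly lower in Ebf2 E165X/+ IWAT, by amounts that were modest for each gene. Of them, 53 had a negative log2 fold change, and the exceptions were Ndufb2 and the copy Ndufs6b. The median was −0.30 for nuclear subunits, −0.34 for mt-Nd genes, and −0.16 for assembly factors, beside 0.01 for all 32664 genes tested. No complex I gene passed an adjusted P of 0.05 in edgeR's quasi-likelihood test, in which 3 genes passed among all tested (0.00918%). The smallest adjusted P among the 55 was 0.489. The number of all genes that passed was 11 without the third Ebf2 E165X/+ mouse and 1 without the second wild-type mouse.

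At an unadjusted P under 0.05, 21 of the 55 genes were lower and 0 were higher, where 3.70% of the 26057 genes with 10 or more counts were lower at that level. They were 2 of 7 mt-Nd genes, 18 of 36 nuclear subunits, 0 of 8 assembly factors, and Ndufa4. Complete separation, in which every Ebf2 E165X/+ mouse was below every wild-type mouse, was found for 20 of the 55 genes, where the share was 6.58% of the genes with 10 or more counts. DESeq2, run on the same counts, called 6 of the 55 lower at an adjusted P under 0.05 (Ndufa1, Ndufv3, Ndufb8, Ndufab1, Ndufa10, and Ndufv1), and it called 172 genes lower in all (0.660%). All 6 are nuclear subunits. The count of 21 became 42 without the third Ebf2 E165X/+ mouse, 13 without the first wild-type mouse, and 12 and 11 without the first and the second Ebf2 E165X/+ mouse, where 4.32%, 2.69%, 4.03%, and 3.03% of the genes with 10 or more counts were lower at that level. The count of 20 became 51 without the third Ebf2 E165X/+ mouse and 36 without the third wild-type mouse. Separation is easier to reach with 5 mice than with 6, and the share of the genes with 10 or more counts rose as well, to 12.4% and 13.3%.

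The mt-Nd genes encode the proton-pumping core of the membrane arm. Summed over the 7 genes, they took 2.57%, 3.04%, and 2.35% of all counts in wild-type mice and 2.30%, 2.02%, and 2.25% in Ebf2 E165X/+ mice. The genotypes did not overlap, although the third wild-type and the first Ebf2 E165X/+ library lay close together. The means were 2.65% ± 0.35 and 2.19% ± 0.15 (SD, n = 3). All 7 genes were highest in the second wild-type mouse, and 6 of 7 were lowest in the second Ebf2 E165X/+ mouse.

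mt-Nd3, which encodes a subunit at the junction of the membrane and matrix arms, lies at chrM:9459-9806. Its level was 130, 144, and 111 CPM in wild-type IWAT and 87.9, 92.4, and 106 CPM in Ebf2 E165X/+ IWAT. All Ebf2 E165X/+ values were below all wild-type values (log2 fold change −0.43, SE 0.12, edgeR adjusted P = 0.783). mt-Nd4l, the smallest of the mt-Nd proteins (chrM:9877-10173), had 35.9, 62.3, and 32.6 CPM in wild-type mice and 26.5, 23.1, and 29.99 CPM in Ebf2 E165X/+ mice. Its log2 fold change was the most negative among the 55 genes (−0.72, SE 0.24, edgeR adjusted P = 0.783). The second wild-type mouse was far above the others, and without it the log2 fold change was −0.38.

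The counts of these 2 genes are uncertain for a further reason. A pseudogene with 100% identity to mt-Nd4l over 294 bases (Gm10222) carried most of the counts of the pair, so that mt-Nd4l held 5.59% of their sum. For mt-Nd3 and its copy Gm28438, which is 99.71% identical over 345 bases, the share of the gene was 11.5%. With the copies added, mt-Nd4l had 702, 1044, and 568 CPM in wild-type and 488, 447, and 507 CPM in Ebf2 E165X/+ IWAT, with a log2 fold change of −0.68 (SE 0.22). The sum for mt-Nd3 was 1072, 1285, and 951 CPM against 811, 757, and 950.1 CPM, with a log2 fold change of −0.39 (SE 0.16). The genotypes did not overlap for either sum, but for mt-Nd3 the third mouse of each genotype gave nearly the same value.

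The other mt-Nd genes differed by log2 fold changes of −0.28 to −0.35. For mt-Nd1, whose product lies next to the ubiquinone site, levels were 6086, 6733, and 4962 CPM in wild-type mice and 4834, 4129, and 5354 CPM in Ebf2 E165X/+ mice. The third Ebf2 E165X/+ mouse was above the third wild-type mouse, so that the genotypes overlapped. The antiporter-like subunits mt-Nd2, mt-Nd4, and mt-Nd5 had log2 fold changes of −0.28 (SE 0.20), −0.33 (SE 0.25), and −0.35 (SE 0.23). Without the second wild-type mouse mt-Nd5 was at −0.22. Of the antiporter-like genes, mt-Nd4 and mt-Nd5 did not overlap, but for mt-Nd5 the nearest values were 4834 CPM in a wild-type and 4831 CPM in an Ebf2 E165X/+ mouse. mt-Nd6, the member on the opposite strand of the mitochondrial genome, had a log2 fold change of −0.34 (SE 0.16). The ends of mt-Nd4l and mt-Nd4 share 7 bases, and those of mt-Nd5 and mt-Nd6 share 14 bases on opposite strands. Whether counting used the strand was not given in the sources used here.

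**Figure D1:**
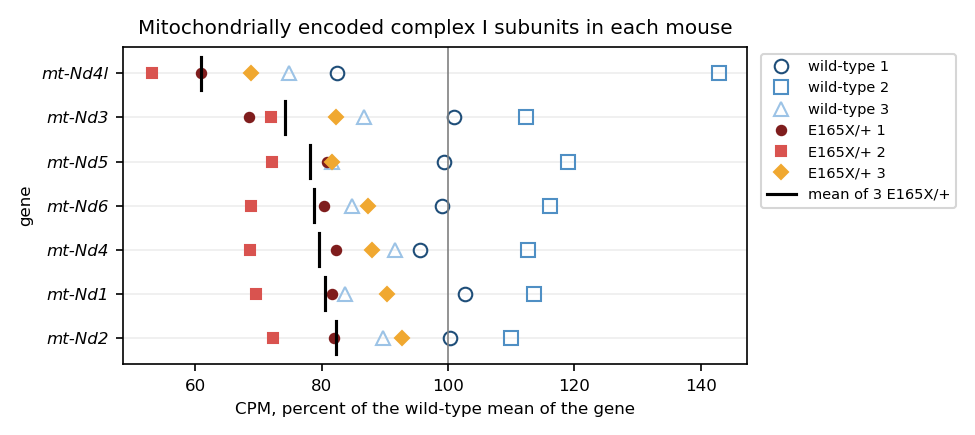
CPM of the 7 mt-Nd genes in each of 6 mice, as percent of the wild-type mean of the gene. Open symbols are wild-type mice, filled symbols are Ebf2 E165X/+ mice, and bars are the means of 3 Ebf2 E165X/+ mice. The second wild-type mouse is the highest in every row, and mt-Nd4l has the lowest bar, at 60.9%.

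The nuclear core subunits carry the flavin and the iron-sulfur clusters and form the ubiquinone site. All 7 had negative log2 fold changes, with a median of −0.29, and 1 of 7 had an unadjusted P under 0.05 in edgeR. Without the third Ebf2 E165X/+ mouse, 7 of 7 were at that level, with a median of −0.51. Of the genes with 10 or more counts, 3.70% were lower at that level with all mice and 4.32% without that mouse. The 1 gene in all mice was Ndufv1 (chr19:4007384-4012806), whose product binds NADH and the flavin. It had 194, 184, and 157 CPM in wild-type mice and 119, 114, and 149 CPM in Ebf2 E165X/+ mice. Every Ebf2 E165X/+ mouse was below every wild-type mouse, and the mean was 71.2% of wild-type (log2 fold change −0.49, SE 0.13, edgeR adjusted P = 0.783, DESeq2 adjusted P = 0.0487).

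Ndufs7 (chr10:80249121-80256794), which carries the last iron-sulfur cluster before ubiquinone, had 61.1, 54.7, and 54.1 CPM in wild-type mice and 37.7, 39.3, and 62.8 CPM in Ebf2 E165X/+ mice. Here the third Ebf2 E165X/+ mouse was the highest of all 6, and the log2 fold change was −0.28 (SE 0.19) with it and −0.56 without it. Log2 fold changes were −0.28 (SE 0.18) for Ndufs1, the large iron-sulfur subunit of the NADH module, and −0.29 (SE 0.18) for Ndufv2, its partner beside Ndufv1. They were −0.30 (SE 0.15) for Ndufs3 and −0.26 (SE 0.14) for Ndufs8, both of the ubiquinone module. Leaving out the third Ebf2 E165X/+ mouse gave values of −0.50 for Ndufs1, −0.51 for Ndufv2, −0.49 for Ndufs3, and −0.42 for Ndufs8. Without the first Ebf2 E165X/+ mouse, Ndufs1 was at −0.18 and Ndufv2 at −0.17, and Ndufs7 was at −0.15 without the first and −0.17 without the second. In Ndufs1, Ndufv2, Ndufs3, and Ndufs8 the third Ebf2 E165X/+ mouse was above the wild-type mean, and the other Ebf2 E165X/+ mice were below every wild-type mouse.

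Of the 29 nuclear accessory subunits, 28 were lower, and 17 of them had an unadjusted P under 0.05. The share lower at that level was 3.70% of the genes with 10 or more counts. Accessory subunits surround and stabilize the core. By name, the 13 Ndufa genes (Ndufab1 included) had a median log2 fold change of −0.35, with 9 at an unadjusted P under 0.05. For the 10 Ndufb genes, which encode parts of the membrane arm, the median was −0.37 with 5 at that level. The 6 Ndufc, Ndufs, and Ndufv accessory genes had a median of −0.28 with 3 at that level. Without the third Ebf2 E165X/+ mouse, 28 of the 29 accessory subunits were at that level, with a median of −0.46. In that fit the share was 4.32% of the genes with 10 or more counts. By name and without that mouse, they were 13 of 13 Ndufa genes (median −0.46), 9 of 10 Ndufb genes (−0.49), and 6 of 6 others (−0.43).

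Ndufa1 (chrX:37187588-37191163), a small membrane subunit needed early in assembly, had the smallest P of the 55 genes. Its levels were 54.1, 53.1, and 47.9 CPM in wild-type mice and 36.6, 38.7, and 41.3 CPM in Ebf2 E165X/+ mice. The groups did not overlap, and the mean was 75.2% of wild-type (log2 fold change −0.41, SE 0.079, edgeR adjusted P = 0.489, DESeq2 adjusted P = 0.0072). Ndufv3 (chr17:31520115-31531331), an accessory subunit of the NADH module, had 79.2, 84.1, and 67.1 CPM in wild-type and 54.9, 55.9, and 55.6 CPM in Ebf2 E165X/+ IWAT. The 3 Ebf2 E165X/+ mice were nearly equal, the third included, and all were below wild-type (log2 fold change −0.47, SE 0.092, edgeR adjusted P = 0.497). Ndufb8 (chr19:44548572-44555440), a membrane arm subunit whose protein is widely used as a marker of assembled complex I, had 159, 151, and 134 CPM in wild-type and 98.2, 92.2, and 120 CPM in Ebf2 E165X/+ mice. The third Ebf2 E165X/+ mouse was nearest to wild-type but did not reach it (log2 fold change −0.52, SE 0.12, edgeR adjusted P = 0.737).

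The next 7 accessory subunits by P, which are Ndufab1, Ndufa7, Ndufa10, Ndufb3, Ndufb6, Ndufa2, and Ndufb9, did not overlap between the genotypes either. These 7 were picked by P in the same mice, which favors genes without overlap. Of all 29 accessory subunits, 12 were lower without overlap, where the share was 6.58% of the genes with 10 or more counts. Ndufab1, the mitochondrial acyl carrier protein, which also serves fatty acid and lipoic acid synthesis, had 119, 110, and 103 CPM in wild-type and 75.8, 75.3, and 93.9 CPM in Ebf2 E165X/+ mice (log2 fold change −0.44, SE 0.11). Ndufa10, related to nucleoside kinases, had a log2 fold change of −0.46 (SE 0.12). In the matrix arm, Ndufa7 was at −0.31 (SE 0.078) and Ndufa2 at −0.41 (SE 0.12) on the same scale. The membrane arm subunits Ndufb3, Ndufb6, and Ndufb9 were at −0.39 (SE 0.11), −0.43 (SE 0.12), and −0.41 (SE 0.13). The edgeR adjusted P was 0.783 for each of these 7. Ndufb3 was the only one of the 36 nuclear subunits that was lowest in the third Ebf2 E165X/+ mouse, at 71.5 CPM against 75.2 and 78.2 CPM in the others. Ndufb6 overlaps Smim27 on the opposite strand, and Ndufb9 shares sequence with the transcript Gm49356, so that some of their reads may belong to the neighbor.

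Ndufb2, a small membrane arm subunit (chr6:39592574-39603382), was the nuclear subunit without a lower mean. It had 26.3, 23.7, and 22.6 CPM in wild-type and 21.04, 21.3, and 32.0 CPM in Ebf2 E165X/+ mice. The first 2 Ebf2 E165X/+ mice were below all wild-type mice and the third was above them, for a log2 fold change of 0.03 (SE 0.17). Without the third mouse it was −0.19. Ndufc1 (chr3:51404677-51408988), which anchors in the membrane arm beside Ndufc2, had a similar arrangement, with 35.8, 33.4, and 29.1 CPM in wild-type and 22.4, 21.1, and 39.6 CPM in Ebf2 E165X/+ mice. Its log2 fold change was −0.24 (SE 0.23) in all mice and −0.59 without the third. Both genes were singled out after their values were seen, Ndufc1 because it moved most among the subunits.

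**Figure D2:**
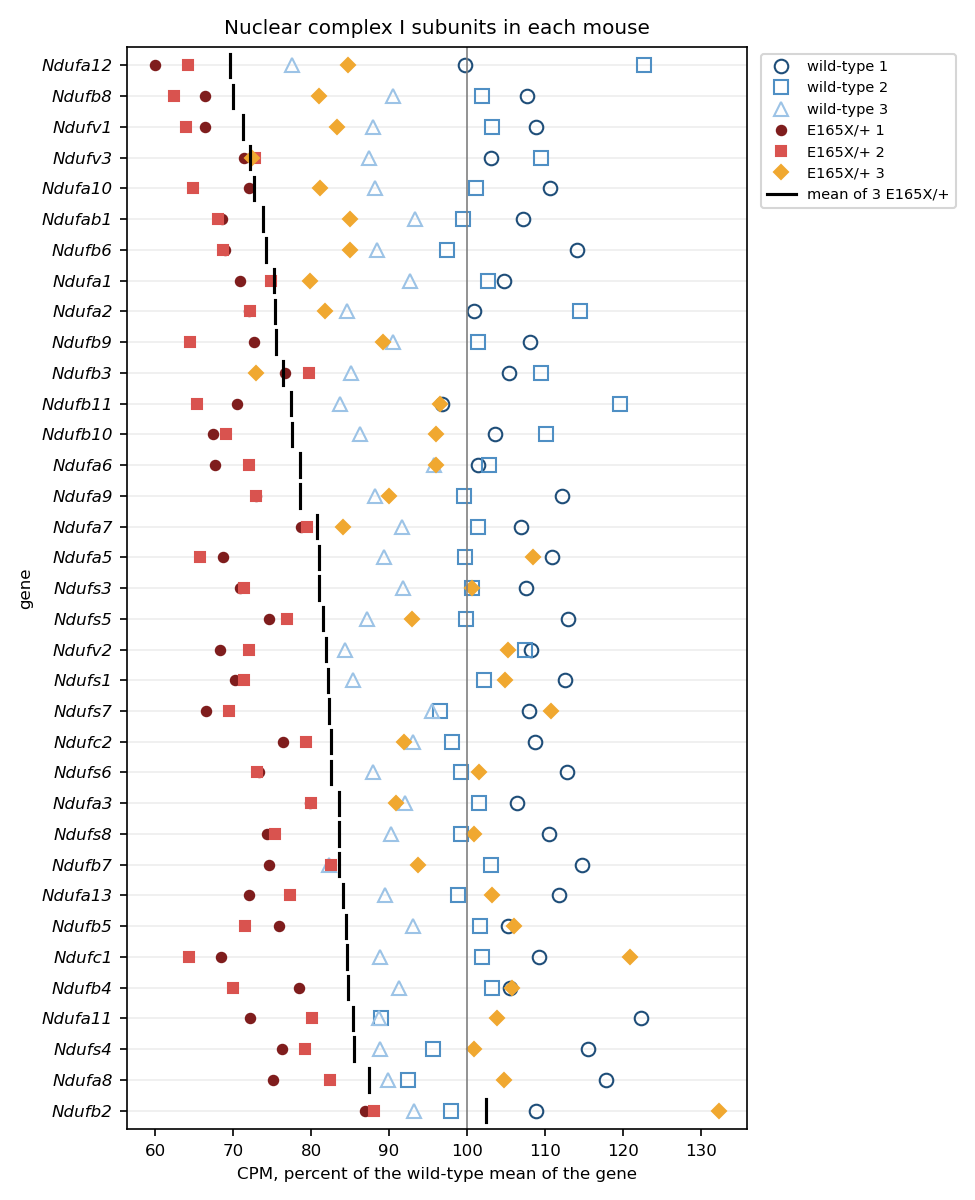
CPM of 35 of the 36 nuclear subunits (1 is not reported here) in each of 6 mice, as percent of the wild-type mean of the gene, ordered by the mean of 3 Ebf2 E165X/+ mice (bars). Open symbols are wild-type and filled symbols Ebf2 E165X/+ mice. Of the genes plotted, the first Ebf2 E165X/+ mouse is below every wild-type mouse in 35, the second in 34, and the third, drawn as diamonds, in 13.

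Promoters of the nuclear genes were searched for letters known from factors of respiratory genes and from the EBF family. Sequences were available for 39 of the 44 nuclear subunits and assembly factors, each from 250 bases before to 50 bases after the RefSeq start (GRCm38.p6). Both strands were searched, and shares are of all 27025 genes with such a window. The EBF letters TCCCNNGGG were found in 2 of 39 (Ndufa8 and Ndufv3), against 7.48% of all genes. Letters of YY1 (AAGATGGCG) were found in 6 of 39, against 1.64%, and those of NRF1 (GCGCATGCG), which overlap their own reverse complement, in 4 of 39, against 1.95%. Letters of the estrogen-related receptors (TCAAGGTCA) were in 0 of 39, against 0.466%. A match is a description of the letters, and no binding was measured here. Windows of 30 bases on the strand of the gene are shown for both EBF matches, with the matched letters in capitals. They are also shown for some of the matched genes that were high in the third Ebf2 E165X/+ mouse. Others that were high there, such as Ndufaf5, are not shown.
Ndufv3 (EBF, chr17:31519990-31520019, plus strand, 115 bases before the start): gcgggatctaCCCAGGGGAggaccccacgc
Ndufa8 (EBF, chr2:36049415-36049444, minus strand, 96 bases before the start): gaagccccgcCCCTCGGGAccgctagactt
Ndufs7 (YY1, chr10:80249463-80249492, plus strand, 24 bases after the start): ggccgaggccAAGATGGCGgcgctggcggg
Ndufc1 (YY1, chr3:51408914-51408943, minus strand, 22 bases after the start): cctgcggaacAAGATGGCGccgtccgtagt
Ndufaf4 (NRF1, chr4:24897960-24897989, plus strand, 113 bases before the start): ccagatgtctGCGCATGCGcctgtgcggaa

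The 2 subunits with the EBF letters had unlike values. Ndufv3 had one of the lowest P values, as given above. Ndufa8 had 80.5, 63.1, and 61.4 CPM in wild-type and 51.4, 56.3, and 71.6 CPM in Ebf2 E165X/+ mice, and its log2 fold change of −0.19 (SE 0.15) was the smallest of the 13 Ndufa genes in all mice. Without the third Ebf2 E165X/+ mouse it was −0.34, beside −0.32 for Ndufa3 and −0.47 for Ndufv3. The other genes with YY1 letters were Ndufa9, Ndufaf8, Ndufs4, and Ndufs6, and the others with NRF1 letters were Ndufa8, Ndufa11, and Ndufaf5.

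Assembly factors are not part of the finished enzyme but build and modify its modules. All 8 Ndufaf genes had negative log2 fold changes, from −0.29 to −0.05, and 0 of 8 had an unadjusted P under 0.05. The share lower at that level was 3.70% of the genes with 10 or more counts. Ndufaf2 (chr13:108002715-108158623), which acts before the NADH module is completed, had 9.15, 9.76, and 7.69 CPM in wild-type and 6.87, 7.502, and 7.35 CPM in Ebf2 E165X/+ mice. Its genotypes did not overlap (log2 fold change −0.29, SE 0.13, edgeR adjusted P = 0.783). Ndufaf7, a methyltransferase, and Ndufaf8, which works with Ndufaf5, did not overlap either, with log2 fold changes of −0.22 (SE 0.11) and −0.19 (SE 0.13).

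Ndufaf4 (chr4:24898083-24905001), an early factor of the ubiquinone module, had 25.4, 22.7, and 22.0 CPM in wild-type and 18.9, 17.2, and 31.6 CPM in Ebf2 E165X/+ mice. The third Ebf2 E165X/+ mouse was the highest and the other 2 were the lowest of all mice, so that the log2 fold change was −0.05 (SE 0.22) with it and −0.37 without it. Its partner Ndufaf3 was at −0.13 (SE 0.11). Ndufaf1, part of the complex that assembles the membrane arm, was at −0.11 (SE 0.13), and Ndufaf5, which hydroxylates Ndufs7, was at −0.13 (SE 0.22). For Ndufaf6 the log2 fold change was −0.27 (SE 0.21). These values depended on single mice. As each mouse was left out in turn, they ran from −0.49 to −0.15 for Ndufaf6, from −0.23 to −0.02 for Ndufaf1, and from −0.35 to 0.0015 for Ndufaf5, with the most negative value in each without the third Ebf2 E165X/+ mouse. Ndufaf3 ran from −0.20 to −0.04, with its extremes without the second and the first wild-type mouse, and Ndufaf7 was at −0.13 without the first wild-type mouse. For Ndufaf1, Ndufaf4, Ndufaf5, and Ndufaf6 the third Ebf2 E165X/+ mouse was above the wild-type mean, and this held for 15 of 36 nuclear subunits.

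**Figure D3:**
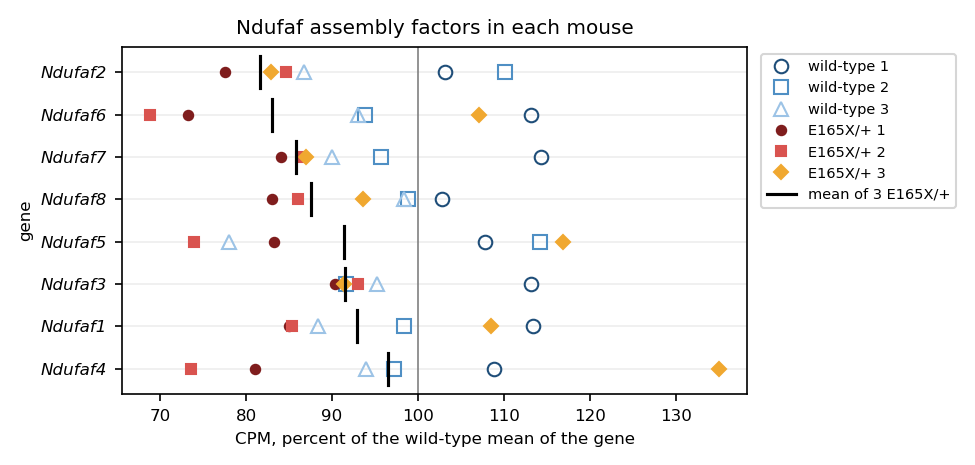
CPM of the 8 Ndufaf assembly factors in each of 6 mice, as percent of the wild-type mean of the gene, with bars for the mean of 3 Ebf2 E165X/+ mice. Bars lie between 81.7% for Ndufaf2 and 96.5% for Ndufaf4, and the genotypes do not overlap for Ndufaf2, Ndufaf7, and Ndufaf8.

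Among assembly factors without an Nduf name, 13 of the 14 listed were analysed here, and 11 were lower, with a median log2 fold change of −0.15. At an unadjusted P under 0.05, 2 were lower, and 0 were higher, where 3.70% of the genes with 10 or more counts were lower. Without the third Ebf2 E165X/+ mouse, 5 were lower at that level, with Ecsit, Timmdc1, and Tmem70 (named after their values were seen) beside the 2 described here. In that fit the median was −0.13, and 4.32% of the genes with 10 or more counts were lower at that level. Foxred1, a flavoprotein needed for a mid-stage intermediate, had 63.3, 56.9, and 53.2 CPM in wild-type and 45.9, 46.9, and 41.1 CPM in Ebf2 E165X/+ mice (log2 fold change −0.37, SE 0.090). Aifm1, which supports the import of several respiratory chain subunits, had 65.7, 68.1, and 52.4 CPM against 44.6, 50.3, and 45.7 CPM (log2 fold change −0.41, SE 0.11). For both, all Ebf2 E165X/+ mice were below all wild-type mice, the third among them, and the edgeR adjusted P was 0.783.

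The mitochondrially encoded genes of other complexes were lower as well. All 6 had negative log2 fold changes, with a median of −0.39, and of −0.45 without the third Ebf2 E165X/+ mouse. In all 6 the genotypes did not overlap, where the share was 6.58% of the genes with 10 or more counts. One of them had an unadjusted P under 0.05 in edgeR, both with and without that mouse. Of the genes with 10 or more counts, 3.70% and 4.32% were lower at that level in these fits. The gene was mt-Atp8, a subunit of ATP synthase, with 477, 514, and 365 CPM in wild-type and 276, 285, and 311 CPM in Ebf2 E165X/+ mice (log2 fold change −0.64, SE 0.14, edgeR adjusted P = 0.708). DESeq2 called 2 of the 6 lower, mt-Atp8 (adjusted P = 0.0024) and mt-Co1, a core subunit of complex IV that was named after its value was seen (adjusted P = 0.0342). Among the genes with 10 or more counts, it called 0.660% lower. Near-identical copies of these 6 genes were not searched for, and mt-Atp8 (chrM:7766-7969) overlaps mt-Atp6 (chrM:7927-8607). All mitochondrially encoded genes together took 8.24%, 9.63%, and 8.11% of counts in wild-type and 7.14%, 6.14%, and 6.87% in Ebf2 E165X/+ libraries. Within those counts, the mt-Nd share was 31.2%, 31.6%, and 29.0% in wild-type and 32.2%, 32.9%, and 32.7% in Ebf2 E165X/+ libraries.

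Nuclear and mitochondrial members were set side by side by mouse. Counts of mt-Nd genes per count of nuclear subunits were 7.74, 9.38, and 8.36 in wild-type and 9.73, 8.42, and 7.98 in Ebf2 E165X/+ libraries. The genotypes overlapped in this ratio (8.50 ± 0.83 and 8.71 ± 0.91, SD, n = 3). Nuclear subunits took 0.332%, 0.324%, and 0.282% of counts in wild-type and 0.237%, 0.240%, and 0.282% in Ebf2 E165X/+ libraries, so that the third mice of both genotypes had nearly the same share. On the log2 CPM scale with 1 added, relative to the wild-type mean of each gene, the average over the 36 nuclear subunits was −0.46 and −0.45 in the first 2 Ebf2 E165X/+ mice and −0.07 in the third. The same average over the 7 mt-Nd genes was −0.37, −0.54, and −0.23. For the 8 assembly factors it was −0.25, −0.26, and 0.03. Wild-type mice ranged from −0.16 to 0.12 for nuclear subunits, −0.22 to 0.25 for mt-Nd genes, and −0.13 to 0.13 for assembly factors.

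Without the third Ebf2 E165X/+ mouse, 55 of 55 genes had negative log2 fold changes, and 42 had an unadjusted P under 0.05. They were 35 of 36 nuclear subunits, 3 of 7 mt-Nd genes, 2 of 8 assembly factors, Ndufa4, and Ndufb4c. Lower genes at that level made up 4.32% of the genes with 10 or more counts in that fit. The medians were −0.47 for nuclear subunits, −0.41 for mt-Nd genes, and −0.27 for assembly factors, and 0 of 55 passed an adjusted P of 0.05 in edgeR, where the smallest was 0.137.

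**Figure D4:**
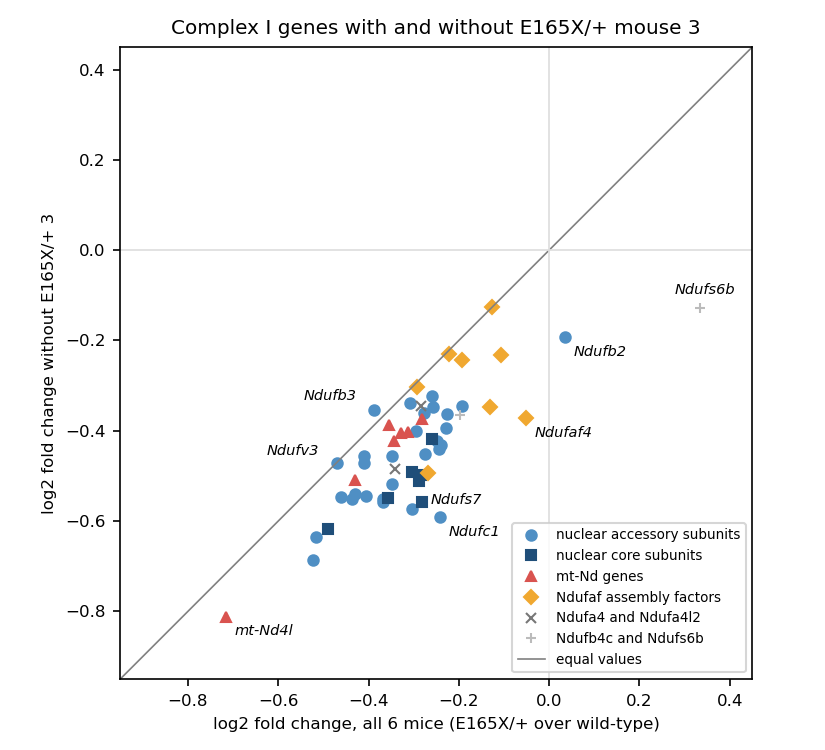
Log2 fold changes (Ebf2 E165X/+ over wild-type) of 55 complex I genes from edgeR with all 6 mice (x axis) and without the third Ebf2 E165X/+ mouse (y axis). The line marks equal values. Most nuclear subunits lie below the line, with Ndufc1 going from −0.24 to −0.59, while Ndufv3 lies on it at −0.47.

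Levels of cell type markers differed between the mice. The skeletal muscle markers were highest by far in the Ebf2 E165X/+ mouse in which complex I genes were nearest to wild-type, as given above, and their part in the result was not tested. The 6 brown or beige adipocyte markers (Ucp1, Cidea, Cox8b, Elovl3, Ppargc1a, and Dio2) summed to 140, 189, and 190 CPM in wild-type and 33.7, 38.8, and 64.4 CPM in Ebf2 E165X/+ IWAT. Cidea was the most abundant, none was at 0 in any library, and the sums did not overlap between the genotypes. Of the single markers, Ucp1 and Cidea did not overlap, while Cox8b, Elovl3, Dio2, and Ppargc1a did. Cox8b was at 32.8 CPM in the third Ebf2 E165X/+ mouse, against 31.4, 48.9, and 32.0 CPM in wild-type mice, and Ppargc1a was highest of all mice in that mouse, at 14.7 CPM. The 6 adipocyte markers summed to 10841, 11801, and 9262 CPM in wild-type and 9961, 8556, and 6490 CPM in Ebf2 E165X/+ IWAT, with overlap and with the lowest value in the third Ebf2 E165X/+ mouse. The part of these markers in the complex I values was not tested. In bulk tissue, fewer cells of a type and less RNA per cell cannot be told apart.

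Among immune and blood markers, 6 B cell markers (Cd79a, Cd79b, Ms4a1, Cr2, Fcer2a, and Pax5, with Ms4a1 the most abundant) summed to 337, 532, and 537 CPM in wild-type and 552, 623, and 572 CPM in Ebf2 E165X/+ mice. The sums did not overlap, and each Ebf2 E165X/+ mouse was above each wild-type mouse. The 6 T cell markers (Lck the most abundant) summed to 225 to 298 CPM in wild-type and 295 to 346 CPM in Ebf2 E165X/+ mice, with overlap. The 6 macrophage markers (Lyz2 the most abundant) summed to 1281 to 1629 CPM and 1554 to 1714 CPM, and the 6 erythroid markers (Hbb-bs the most abundant) to 2137 to 3317 CPM and 2005 to 4558 CPM. None of these markers was at 0 in any library, and their part in the complex I values was not tested.

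**Figure D5:**
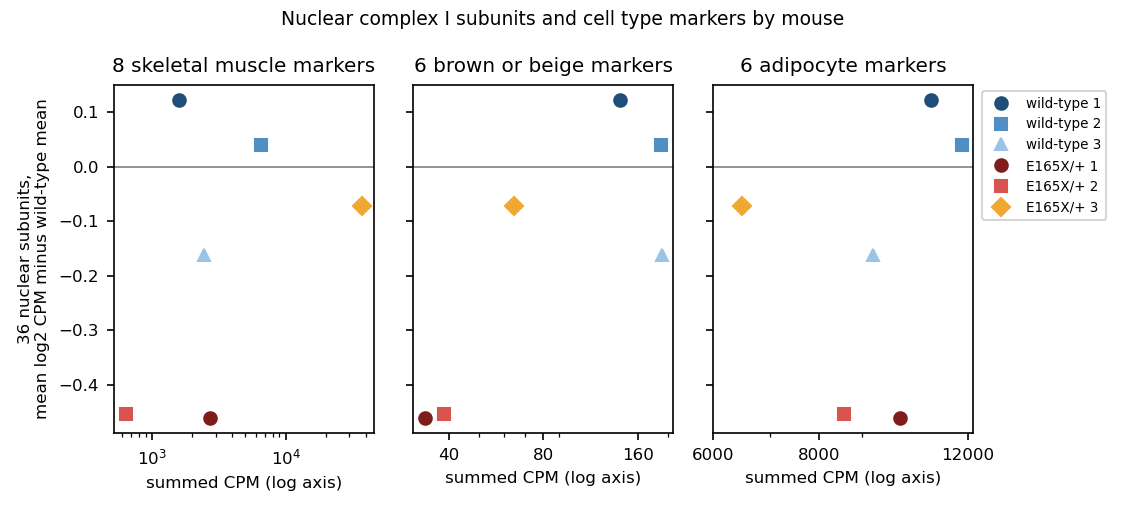
Mean log2 CPM of the 36 nuclear complex I subunits relative to wild-type (y axis) against the summed CPM of skeletal muscle, brown or beige, and adipocyte markers (x axes, log scale), with 1 point per mouse. The third Ebf2 E165X/+ mouse has the highest muscle sum (37371 CPM), the lowest adipocyte sum (6490 CPM), and a subunit mean of −0.07, between the second and the third wild-type mouse.

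The remaining members were read apart from complex I. Ndufa4, a subunit associated with complex IV (chr6:11900292-11907497), had 161, 150, and 131 CPM in wild-type and 107, 104, and 139 CPM in Ebf2 E165X/+ mice, with overlap (log2 fold change −0.34, SE 0.14, edgeR adjusted P = 0.783). Ndufa4l2, its hypoxia-inducible relative, had a log2 fold change of −0.28 (SE 0.14). Ndufb4c, a processed copy of Ndufb4 with 100% identity over 390 bases, took more counts than Ndufb4 itself, which held 40.2% of their sum. Log2 fold changes were −0.20 (SE 0.14) for Ndufb4c, −0.24 (SE 0.16) for Ndufb4, and −0.21 (SE 0.14) for the sum, for which the genotypes overlapped (edgeR adjusted P = 0.783). Leaving out the third Ebf2 E165X/+ mouse gave −0.37 for Ndufb4c and −0.43 for Ndufb4. Ndufb4c was at −0.13 without the first and −0.11 without the second Ebf2 E165X/+ mouse. Ndufs6b, a copy of Ndufs6, had 3 to 18 counts per library and a log2 fold change of 0.33 (SE 0.60), which was −0.13 without the third Ebf2 E165X/+ mouse. Ndufb1-ps had 36.2, 34.1, and 30.6 CPM in wild-type and 25.5, 23.4, and 32.2 CPM in Ebf2 E165X/+ mice (log2 fold change −0.32, SE 0.13), with the third Ebf2 E165X/+ mouse within the wild-type range.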

How the data were processed

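Bulk RNA-seq of IWAT from 3 wild-type and 3 Ebf2 E165X/+ mice was analysed. The deposited values are expected counts per gene, 1 column per library, which the authors estimated with RSEM 1.3.3 after STAR 2.7.8a on GRCm38, per the submitters' processing notes (cutadapt 4.8, FastQC 0.11.8, MultiQC 1.20). All were whole numbers, so that rounding changed none. The labels name an NEB kit and the paper's supplement a 3′ mRNA kit; with the latter, counts would not scale with transcript length.

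Genotypes were compared in R 4.3.3 with edgeR 4.0.16 (TMM, glmQLFit and glmQLFTest, genotype only) on the 32664 genes that had a count in some library, and P values were adjusted by Benjamini-Hochberg over all of them. SE were derived from the log2 fold change and its F statistic. Alternatives were DESeq2 1.42.0, limma-voom (limma 3.58.1), other scalings, filters on low counts, a replicate block, and each mouse left out. Adding near-identical copies (at least 95% identity over 200 bases, blastn 2.17.0) was chosen after the data were seen. Totals per library were 106820505 to 135039488. In simulated counts for 6 libraries (dispersion 0.05), edgeR recovered 198 of 200 genes with a log2 fold change of 2. It made 10 false calls among 31762 genes. The complex I genes differed by less, so that the simulation does not show how often changes of their size are found.

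The complex I genes, the gene lists, and the rule for genes described singly were chosen with earlier results of these data known. That rule took Ebf2, all mt-Nd, core, Ndufaf, and copy genes, the 10 accessory subunits with the smallest P, those without a lower mean, Ndufa4, Ndufa4l2, and, of other assembly factors and mitochondrially encoded genes, those with an unadjusted P under 0.05. Ndufa8, Ndufb4, Ndufc1, and Ndufb1-ps were added after their values were seen. Gene positions are from GENCODE M21 (GRCm38), and promoter sequences from RefSeq (GRCm38.p6). Results for some genes are not reported here, Coa1 was not analysed here, and protein sequences were not used here.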

Additional observations from a re-analysis of the deposited data

How the results depend on the processing

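The medians of nuclear subunits, mt-Nd genes, and assembly factors were negative under every alternative run, and each moved by less than the spread between mice. With 1 mouse left out at a time they ran from −0.47 to −0.23, from −0.47 to −0.23, and from −0.27 to −0.11. The number of all genes with an adjusted P under 0.05 was 3 in edgeR, 189 in DESeq2, 6 with total counts without TMM factors, and 1 to 11 with 1 mouse left out. Complex I genes lower at an unadjusted P under 0.05 numbered 21, and 11 to 42 with 1 mouse left out, the lowest without the second and the highest without the third Ebf2 E165X/+ mouse. They numbered 13 without the first wild-type mouse and 12 without the first Ebf2 E165X/+ mouse. Genes without overlap numbered 20, and 20 to 51 with 1 mouse left out, with 36 without the third wild-type mouse, where 6.58% of the genes with 10 or more counts were without overlap in all mice and 10.9% to 13.3% with 1 mouse left out. Signs changed for Ndufaf5 (−0.35 to 0.0015), Ndufaf4 (−0.37 to 0.11), Ndufs6b (−0.13 to 0.76), and Ndufb2 (−0.19 to 0.14) as single mice were left out, and the cause was not tested. No complex I gene had an adjusted P under 0.05 in any edgeR or limma-voom setting run. DESeq2 called 6 lower, where it called 0.660% of the genes with 10 or more counts lower. Adding near-identical copies left 21 genes lower at an unadjusted P under 0.05. With the replicate block, 14 genes were lower at that level, and 2 genes in all had an adjusted P under 0.05, while Ebf2 had an adjusted P of 0.502. The share of all genes lower at the unadjusted level is not given here for either fit, and neither count is read further. Same-numbered mice had correlations of 0.19, −0.42, and −0.20 in their deviations from the group means. With 3 mice per genotype, these correlations cannot tell whether same-numbered mice shared a litter or a batch. Ndufs6b rested on 3 to 18 counts per library.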
